A study of Mus musculus with 6 samples.

Results

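The 9 genes described here, Foxo1, Foxo3, Klf2, Klf3, Klf13, Tob1, Btg1, Btg2 and S1pr1, encode factors that hold naive T cells at rest or keep them recirculating. They were taken by symbol from a table of 34245 genes, in which each of the 9 has a single entry. Gene expression was measured by RNA-seq in 3 peripheral T-cell lymphomas (PTCL) of Dnmt3b+/- mice on the FVB background (FVB/N in the study's methods), which carry 1 conventional knockout allele of the DNA methyltransferase gene Dnmt3b. The tumors were independent and came from lymph nodes of terminally sick mice, and their ages are not given in the sources used here. RNA was taken from tumor tissue with no sorting step named, and control T cells were not analysed here, so the values compare 3 tumors of 1 genotype and no test between groups exists. The depth of tumors 1, 2 and 3 was 30726570, 18969988 and 20770928 reads.

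A naive T cell is quiescent: it is small, does not divide, and circulates between blood and lymphoid organs until it meets its antigen. FOXO transcription factors are active in the nucleus of such a cell and are driven out of it when the kinase AKT phosphorylates them after antigen receptor or growth factor signaling. FOXO1 raises transcription of Klf2 and of the interleukin-7 receptor gene Il7r, and KLF2 in turn raises S1pr1, whose receptor leads T cells out of lymph nodes along a gradient of sphingosine-1-phosphate. BTG and TOB proteins bind the CCR4-NOT deadenylase and shorten poly(A) tails, which limits the messages a resting cell keeps. Activation lowers many of these factors in normal T cells.

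All 9 genes were expressed in each tumor, and most of them were low in tumor 2. FPKM, which is the number of fragments per kilobase of exon and per unit of sequencing depth, was above 1 in every tumor for 9 of 9 members, against 28.4% of all gene symbols. Tumor 2 was the lowest for 7 of 9 members, against 38.3% of the 11191 genes with a mean of at least 1 FPKM. For 5 of 9, Foxo1, Klf2, Klf3, Btg1 and S1pr1, the value in tumor 2 was at most 0.5 times that of each other tumor, which held for 3.95% of those genes. That rule, and the count of genes lowest in tumor 2, were set after the values were seen, so they describe the pattern and do not test it. The same 5 members had a highest tumor at least 2 times the lowest, against 34.4% of genes. Tumor 1 was the highest for 6 of 9, which is near the 50.6% of all genes that were highest there. In bulk tumor RNA, fewer cells of a type and less RNA per cell cannot be told apart, and this holds for each difference between tumors given here.

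**Figure D1:**
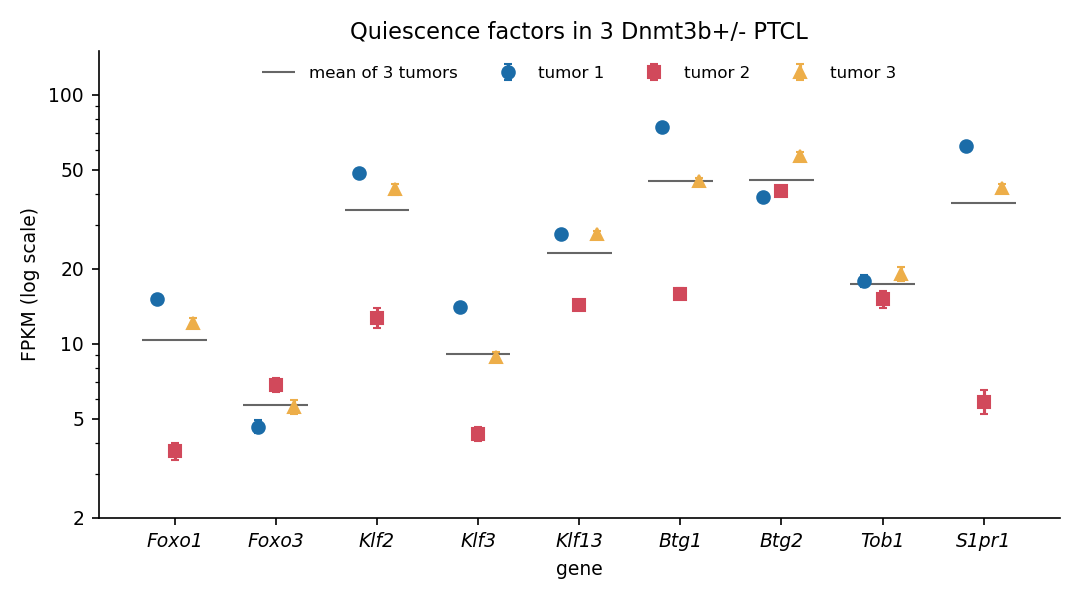
FPKM on a log axis of the 9 quiescence factors in each of 3 Dnmt3b+/- PTCL, with the mean of the 3 tumors as a line and exact 95% Poisson intervals on the reads as bars. Tumor 2 lies below tumors 1 and 3 for 7 genes, by the widest margin for S1pr1, and above both for Foxo3.

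S1pr1 (ENSMUSG00000045092), on chromosome 3 of mm10 from 115710433 to 115715072, encodes the sphingosine-1-phosphate receptor that T cells need to leave lymph nodes. It had 62.2, 5.83 and 42.1 FPKM in tumors 1, 2 and 3, and its mean was 36.7 ± 28.6 (SD, n = 3). Tumor 2 stood at 11.2% of the mean of the other tumors, the widest gap of any member. The values rest on 5820, 337 and 2663 reads, so the exact 95% Poisson interval in tumor 2 ran from 5.23 to 6.49 FPKM. Such intervals cover counting error only. Tumor 1 was 10.7 times tumor 2, with an exact binomial interval on the reads of 9.55 to 11.9, and tumor 3 was 7.22 times tumor 2 (6.44 to 8.11). Of the genes with a mean of at least 1 FPKM, 95.1% had a smaller ratio of highest to lowest tumor.

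The other receptors of the family did not follow S1pr1. S1pr4, a receptor of lymphoid cells for the same lipid, had 25.7, 25.2 and 25.8 FPKM in tumors 1, 2 and 3, a ratio of highest to lowest of 1.02. Thus S1pr1 was 2.42 times S1pr4 in tumor 1 and 1.63 times in tumor 3, but 0.232 times in tumor 2, so the order of the receptors was turned in tumor 2. S1pr5, the receptor of effector and natural killer cells, had 0.143, 0.633 and 4.12 FPKM and was highest in tumor 3. S1pr2 was low throughout, with 0.825, 2.18 and 0.767 FPKM.

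The better expressed genes that make, break down or signal from sphingosine-1-phosphate varied little beside S1pr1. Of 10 such genes, 6 had a mean of at least 1 FPKM, none of the 6 reached a ratio of 2 between tumors and 1 was lowest in tumor 2. The other 4, Plpp3, Spns2, Sphk1 and Mfsd2b, named after their values were seen, were below that mean and had ratios of 12.0, 7.66, 3.72 and 2.19, each from at most 91 reads in a tumor. Gnai2, the G protein subunit that S1PR1 signals through, had 65.0, 78.0 and 66.2 FPKM. Grk2, the kinase that turns the receptor off, had 52.3, 66.0 and 55.1 FPKM, and the lyase gene Sgpl1 had 10.1, 11.2 and 9.32 FPKM. Among the 6 genes with a mean of at least 1 FPKM, the widest ratios were those of the sphingosine kinase gene Sphk2, with 4.42, 7.64 and 6.61 FPKM, and the phosphatase gene Sgpp1, with 9.27, 5.81 and 8.27 FPKM.

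Foxo1 (ENSMUSG00000044167), on chromosome 3 from 52268336 to 52353221, is the main FOXO factor of naive T cells. Its level in tumors 1, 2 and 3 was 15.1, 3.70 and 12.1 FPKM. Its mean was 10.3 ± 5.91 FPKM (SD, n = 3), from 4022, 609 and 2181 reads, and the interval in tumor 2 was 3.42 to 4.01 FPKM. In tumor 2 it was the lowest of the 9 members. Foxo3 (ENSMUSG00000048756), on chromosome 10 from 42181841 to 42276755, is a related factor with overlapping targets. It had 4.63, 6.84 and 5.56 FPKM in tumors 1, 2 and 3, with a mean of 5.68 ± 1.11 (SD, n = 3) from 1078, 982 and 875 reads. Foxo3 was the only member with its highest value in tumor 2, where it was 134% of the mean of the other tumors, and it was highest there under each of the 4 other scalings tried.

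The FOXO genes therefore changed rank between tumors, and since a ratio of genes within a tumor is the same under any scaling of that tumor, this order does not depend on the scaling. Foxo1 was 3.26 times Foxo3 in tumor 1 and 2.18 times in tumor 3, but 0.542 times in tumor 2. Foxo4, the remaining FOXO gene with a mean of at least 1 FPKM, had 7.61, 13.8 and 12.8 FPKM, so that it exceeded Foxo1 in tumors 2 and 3 and was below it in tumor 1. Of the 8665 exonic bases of Foxo1, 7.78% are shared with Gm20402, an antisense gene with 6.06, 3.30 and 1.82 FPKM. Whether the authors' counting used strand is not given in the sources used here, so reads in that stretch cannot be assigned to either gene.

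Genes that act on FOXO proteins, the PI3K and AKT pathway among them, varied less than Foxo1. Of 11 genes, 5 were lowest in tumor 2, 2 had a ratio of at least 2 between tumors and none was at most 0.5 times each other tumor in tumor 2. Pik3cd, the lymphocyte PI3K subunit, had 54.0, 86.9 and 78.9 FPKM, and Akt1 had 29.9, 29.4 and 24.8 FPKM. Stk4, the MST1 kinase gene that favors FOXO activity in naive T cells, had 62.2, 34.6 and 42.0 FPKM. The 2 genes with the wider ratios were Sgk1, an AKT-like kinase gene, with 12.1, 9.73 and 23.3 FPKM, and the ubiquitin ligase gene Skp2, with 1.47, 1.06 and 0.691 FPKM. These are levels of RNA and say nothing of the phosphorylation that controls FOXO proteins.

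Klf2 (ENSMUSG00000055148), on chromosome 8 from 72319033 to 72321656, encodes the factor that keeps S1pr1 on and holds T cells quiescent. It had 48.6, 12.7 and 41.7 FPKM in tumors 1, 2 and 3, and its mean was 34.3 ± 19.0 (SD, n = 3) from 2758, 446 and 1598 reads. Tumor 1 was 3.82 times tumor 2, with an interval of 3.45 to 4.23, and 1.17 times tumor 3 (1.10 to 1.24). Klf2 and Foxo1 thus had nearly the same profile: once each was centered on its mean log2 FPKM, they differed by at most 0.06 log2 units in any tumor. Among the 3431 other genes with a mean of at least 10 FPKM, Klf2 was 1 of the 2 genes closest to Foxo1.

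Klf3 (ENSMUSG00000029178), on chromosome 5 from 64803388 to 64832901, encodes a repressor that binds the same CACCC-type sites as other KLF proteins. It had 14.1, 4.36 and 8.86 FPKM in tumors 1, 2 and 3, with a mean of 9.11 ± 4.88 (SD, n = 3) from 4873, 930 and 2069 reads. Its value in tumor 2 was 0.309 times that in tumor 1 and 0.492 times that in tumor 3, which is just inside the limit of 0.5. Of its exonic bases, 3.59% are shared with Gm20033 on the opposite strand, which had 0.792, 0.472 and 0.154 FPKM, and the same limit on strand holds there as for Foxo1. Klf13 (ENSMUSG00000052040), on chromosome 7 from 63886351 to 63938915, encodes a factor known for the late induction of the chemokine gene Ccl5 in T cells. It had 27.7, 14.3 and 27.5 FPKM, with a mean of 23.1 ± 7.70 (SD, n = 3) from 6400, 2036 and 4305 reads. Klf13 lies just outside both limits, with tumor 2 at 0.515 and 0.518 times tumors 1 and 3, and tumors 1 and 3 did not differ beyond counting error (ratio 1.00, interval 0.967 to 1.04). With tumors scaled to 6 T cell markers, Klf13 passed both limits. With FPKM rescaled to a common sum it passed only the ratio of 2, and Klf3 lost the limit of 0.5, as it also did with tumors scaled to all 9 T cell markers.

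Other KLF genes did not share this profile as a family. Klf6 was highest in tumor 1 but lowest in tumor 3, with 36.9, 17.4 and 13.5 FPKM. Klf10, a target of TGF-beta signaling, had 8.41, 8.50 and 5.09 FPKM, and Klf16 had 7.28, 10.8 and 9.51 FPKM. Klf7 had 3.85, 1.83 and 2.17 FPKM, Klf9 had 0.838, 1.02 and 1.22 FPKM, and Klf11 had 1.83, 0.692 and 1.19 FPKM. The level of Klf2 was thus 1.32 times that of Klf6 in tumor 1 and 3.09 times in tumor 3, but 0.730 times in tumor 2. Of the 23 paralogs of the members over all families, 12 had a mean of at least 1 FPKM, 4 of the 12 were lowest in tumor 2, and none was at most 0.5 times each other tumor there.

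Genes that regulate KLF2 or work with KLF3 gave no common direction in tumor 2. Of 11, 9 had a mean of at least 1 FPKM, 3 of the 9 reached a ratio of 2, 2 were lowest in tumor 2, and 1 met the limit of 0.5 there. The last was Wwp1, named after its values were seen, which encodes a ubiquitin ligase for KLF2 and had 5.16, 2.43 and 5.36 FPKM. Ctbp1, the corepressor that KLF3 recruits, had 24.9, 30.03 and 26.3 FPKM. Mef2d had 21.6, 27.4 and 19.2 FPKM and Sin3a, a corepressor gene, 12.5, 10.4 and 12.0 FPKM. The kinase gene Mapk7, which raises Klf2 in other settings, had 3.69, 1.80 and 1.59 FPKM. Fhl3, a partner of KLF3, was highest in tumor 2, with 3.21, 10.3 and 2.35 FPKM.

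**Figure D2:**
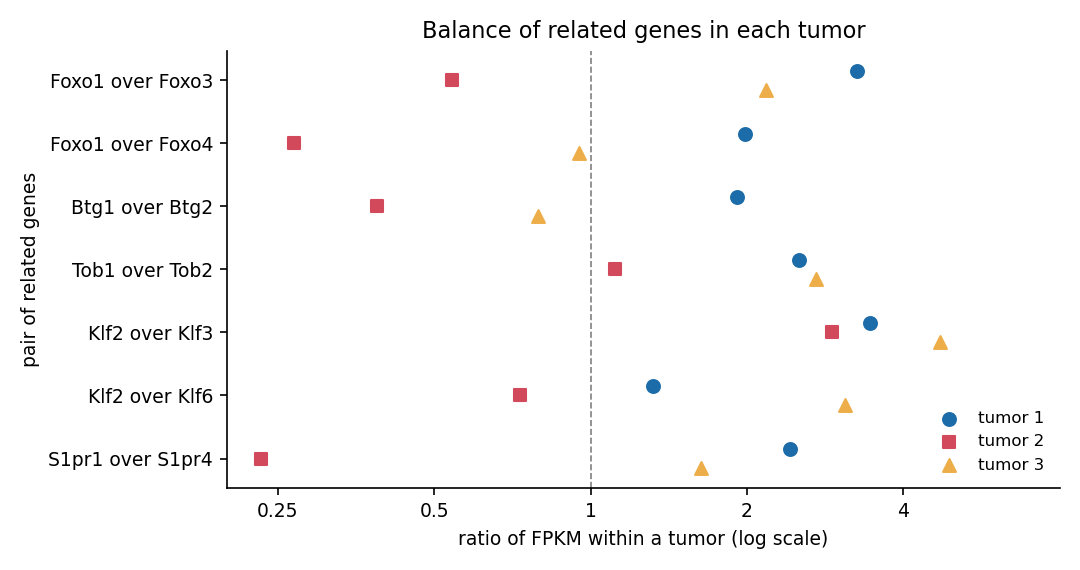
Ratio of FPKM, on a log axis, between related genes within each of 3 Dnmt3b+/- PTCL, with 1 point per tumor and a dashed line at equal levels. In tumor 2 the ratios of Foxo1 to Foxo3, Klf2 to Klf6 and S1pr1 to S1pr4 lie below 1, whereas in tumors 1 and 3 they lie above 1.

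Btg1 (ENSMUSG00000036478), on chromosome 10 from 96617006 to 96622809, was the most abundant member in tumor 1. It had 73.9, 15.9 and 45.0 FPKM in tumors 1, 2 and 3, and its mean was 45.0 ± 29.0 (SD, n = 3) from 11984, 1592 and 4934 reads. Tumor 1 was 4.65 times tumor 2 (interval 4.41 to 4.90) and 1.64 times tumor 3 (1.59 to 1.70), so all 3 tumors differed beyond counting error. The pseudogenes Btg1-ps1 and Btg1-ps2, copies of Btg1 on chromosome X, held no counted read in any tumor. Reads that match Btg1 and a copy alike may fail the mapping quality of 50 required for counting, so this does not measure them.

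Btg2 (ENSMUSG00000020423), on chromosome 1 from 134075170 to 134079120, encodes the closest relative of BTG1 and is also a target of p53. It had 38.7, 41.0 and 56.8 FPKM, with a mean of 45.5 ± 9.82 (SD, n = 3) from 3262, 2136 and 3234 reads. BTG1 and BTG2 act together in keeping T cells quiescent, but their RNA did not move together here. Btg1 was 1.91 times Btg2 in tumor 1, 0.793 times in tumor 3 and 0.387 times in tumor 2. Btg2 was lowest in tumor 1 as deposited, with median-of-ratios factors and with all 9 T cell markers, but lowest in tumor 2 with FPKM rescaled to a common sum or with tumors scaled to 6 T cell markers, so which tumor is its lowest depends on the scaling. It was highest in tumor 3 under every scaling tried.

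Tob1 (ENSMUSG00000037573), on chromosome 11 from 94211454 to 94215495, encodes a protein that raises the threshold for T cell activation. As deposited it varied least of the 9, with 17.9, 15.1 and 19.1 FPKM and a mean of 17.4 ± 2.06 (SD, n = 3) from 1255, 655 and 909 reads. Tumors 1 and 3 did not differ beyond counting error, since the interval of their ratio ran from 0.856 to 1.02, and 16.3% of the genes with a mean of at least 1 FPKM had a smaller ratio of highest to lowest tumor. With FPKM rescaled to a common sum Btg2 varied less than Tob1, as Foxo3 did with tumors scaled to 6 T cell markers. Tob1 was lowest in tumor 2 except with tumors scaled to all 9 T cell markers, where tumor 1 was the lowest. Its paralog Tob2 had 7.10, 13.6 and 7.04 FPKM, so that Tob1 was 2.52 and 2.72 times Tob2 in tumors 1 and 3 and 1.11 times in tumor 2. Btg3 was lower, with 2.80, 1.98 and 3.28 FPKM.

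The deadenylation machinery that BTG and TOB proteins recruit was present in each tumor. All 12 genes of that list were above 1 FPKM in every tumor, 9 were lowest in tumor 2, as 7 of 9 members were, 2 reached a ratio of 2 and none was at most 0.5 times each other tumor in tumor 2. The poly(A)-binding protein gene Pabpc1 had 192.6, 210.0 and 162.3 FPKM. Prmt1, which encodes a methyltransferase that binds BTG proteins, had 18.1, 18.4 and 24.1 FPKM, and the deadenylase gene Cnot8 had 20.1, 16.9 and 19.8 FPKM. The 2 deadenylase genes with the wider ratios were Cnot6, with 20.4, 9.47 and 13.4 FPKM, and Cnot7, with 9.61, 4.68 and 5.39 FPKM, both lowest in tumor 2.

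By mean FPKM the members ranked Btg2, Btg1, S1pr1, Klf2, Klf13, Tob1, Foxo1, Klf3 and Foxo3. The ranges over the 3 tumors overlapped for each pair of neighbors in this order, so by this measure no neighbors differed beyond their spread. Compared within each tumor, Btg1 was above S1pr1 and Tob1 above Foxo1 in 3 of 3 tumors, and the other pairs of neighbors kept this order in 2 of 3. Within a tumor the order was clearer for some members. Other ranks had overlapping Poisson intervals, such as those of Btg1 (15.1 to 16.7 FPKM) and Tob1 (14.0 to 16.3 FPKM) in tumor 2. Btg1, S1pr1 and Klf2 led in tumor 1, Btg2 and Btg1 led in tumors 2 and 3, and S1pr1 stood at rank 2 in tumor 1 and rank 3 in tumor 3 but at rank 7 in tumor 2. Summed over the 9 members, tumors 1, 2 and 3 held 302.8, 119.8 and 258.7 FPKM. The median of their means was 23.1 FPKM, against 5.70 FPKM over genes with a mean of at least 1. Btg2 and Btg1 had higher means than 94.7% and 94.5% of those genes, whereas Foxo3 was in the middle, above 49.9%.

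The 5 members that were low in tumor 2 share neither gene size nor location. S1pr1, Klf2 and Btg1 span 4640, 2624 and 5804 bases with 2 or 3 merged exons, as do the steadier genes Btg2 and Tob1 with 3951 and 4042 bases. Foxo1 and Klf3 are longer and span 84886 and 29514 bases, as are Foxo3 and Klf13 with 94915 and 52565 bases. Foxo1 and S1pr1 lie on the same chromosome but far apart, and Btg1 shares chromosome 10 with Foxo3, which went the other way.

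Promoter sequences, from 250 bases before to 50 after the RefSeq gene start on GRCm38.p6, were found for 8 of the 9 members, and S1pr1 had no entry. All 8 were rich in CpG dinucleotides, the sites of DNA methylation: they held a median of 32 CpG in 300 bases and a GC content of 72.0%, against medians of 7 CpG and 52.7% over all 32851 promoters. The FOXO core GTAAACA, searched on both strands, was found in the window of Btg1 alone among the 8, and 3.65% of all promoters hold it. The KLF core CACCC was found in 4 of the 8 windows, against 57.5% of all promoters, with 5 matches in Klf3, 3 in Tob1 and 1 each in Klf2 and Klf13. The RefSeq start lies 133 bases downstream of the start in the deposited table for Klf3 and 29 for Klf2. The bases of the window before both starts are shown for the 4 members with a promoter entry that were low together in tumor 2, each 5′ to 3′ on the strand of its gene, with matches to either core in capitals. A match describes the letters and is not evidence of binding. They are chr10:96616751-96617000 on the plus strand for Btg1, chr8:72318812-72319032 on the plus strand for Klf2, chr5:64803271-64803387 on the plus strand for Klf3 and chr3:52268087-52268335 on the plus strand for Foxo1.
Btg1: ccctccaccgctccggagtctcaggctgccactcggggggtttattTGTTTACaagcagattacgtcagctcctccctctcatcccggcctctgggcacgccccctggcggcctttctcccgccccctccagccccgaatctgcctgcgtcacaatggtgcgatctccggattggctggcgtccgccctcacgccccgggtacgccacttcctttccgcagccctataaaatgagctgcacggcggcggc
Klf2: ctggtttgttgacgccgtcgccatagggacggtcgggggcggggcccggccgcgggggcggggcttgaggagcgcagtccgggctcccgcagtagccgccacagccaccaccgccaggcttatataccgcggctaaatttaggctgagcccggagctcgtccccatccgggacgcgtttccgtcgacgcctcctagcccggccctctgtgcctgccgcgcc
Klf3: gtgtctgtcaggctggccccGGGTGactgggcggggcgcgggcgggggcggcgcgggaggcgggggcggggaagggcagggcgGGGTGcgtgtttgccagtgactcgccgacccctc
Foxo1: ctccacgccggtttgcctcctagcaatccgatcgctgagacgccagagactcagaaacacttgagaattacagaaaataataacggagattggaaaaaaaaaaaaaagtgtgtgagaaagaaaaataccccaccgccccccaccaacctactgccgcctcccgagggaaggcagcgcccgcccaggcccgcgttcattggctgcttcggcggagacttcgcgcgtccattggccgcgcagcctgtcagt
In Btg1 the FOXO core appears as its reverse complement TGTTTAC, and 2 of the 5 KLF matches of Klf3 lie in the part shown, both as GGGTG. The match of Klf2 lies after the start in the deposited table, and Foxo1 holds neither core.

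Target genes of FOXO1 and KLF2 had no common direction in tumor 2. Of the 9 with a mean of at least 1 FPKM, 3 were lowest there, and 2 met the limit of 0.5 in tumor 2. That limit was met by 3.95% of all genes with such a mean. Another 4 were highest in tumor 2: Bcl2l11, Sesn1, Pik3ip1 and Ccng2, named after their values were seen. Ccng2 was nearly level in tumors 1 and 2. Bcl2l11, which encodes the death factor BIM, had 13.7, 17.0 and 8.66 FPKM, Sesn1 6.51, 10.3 and 4.32 FPKM, Pik3ip1, an inhibitor of PI3K, 12.1, 15.4 and 12.5 FPKM, and Ccng2 6.11, 6.12 and 4.37 FPKM. Il7r, whose receptor keeps resting T cells alive, had 30.7, 0.641 and 64.5 FPKM in tumors 1, 2 and 3, the widest ratio of the list. Ccr7, the chemokine receptor gene for lymph node entry, had 71.2, 33.2 and 53.8 FPKM. Tumor 2 was the lowest for both, as for Klf2 and S1pr1, although tumor 3 and not tumor 1 was the highest for Il7r. Itgb7, an integrin gene of the same list, was about as low in tumor 3 as in tumor 2, with 194.9, 80.3 and 77.0 FPKM.

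Other genes of T cell quiescence gave a mixed picture beside the 9 members. Of 20 genes, 12 were lowest in tumor 2, and 1, Lef1, met the limit of 0.5 there. Lef1, a transcription factor gene of naive T cells, had 8.71, 2.12 and 8.17 FPKM, close to the proportions of Foxo1. Its relative Tcf7 had 175.2, 124.3 and 169.3 FPKM, Slfn2, a gene needed for T cell quiescence, had 92.5, 92.1 and 108.2 FPKM, and Txnip, a FOXO-responsive inhibitor of glucose uptake, had 103.8, 65.6 and 149.0 FPKM. Foxj1, an inhibitor of NF-kappaB activity in resting T cells, was highest in tumor 2, with 0.496, 2.25 and 0.973 FPKM.

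**Figure D3:**
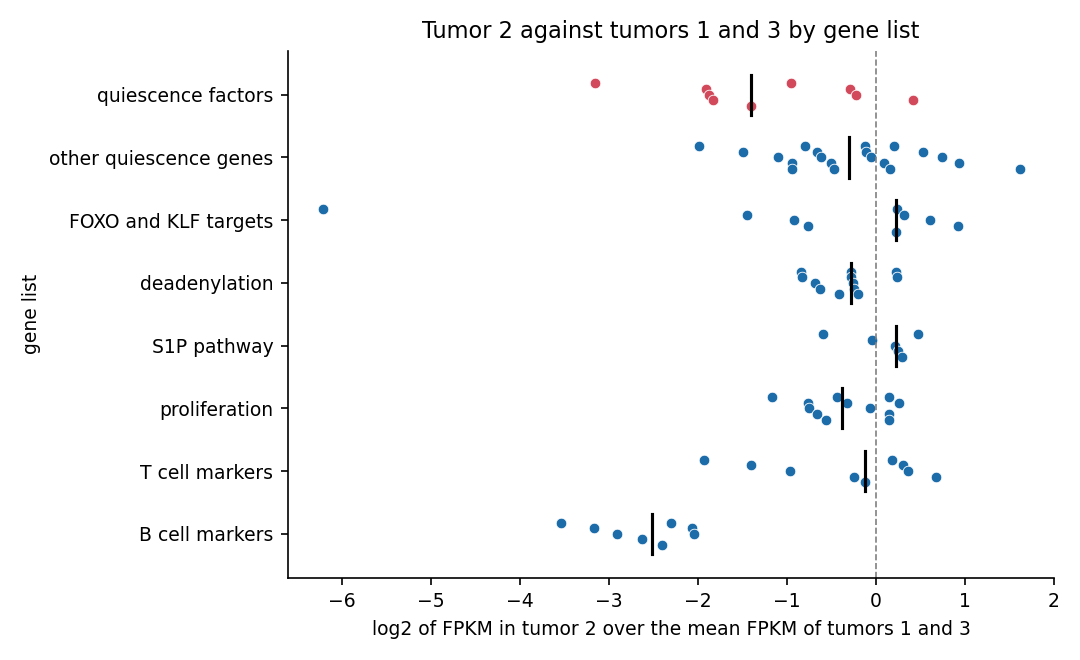
Each point is a gene with a mean of at least 1 FPKM, placed by the log2 of its FPKM in tumor 2 over the mean of tumors 1 and 3, with a black line at the median of each list. The quiescence factors and the B cell markers lie mostly below 0, and the S1P pathway genes lie near 0.

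Most genes of dividing cells were highest in tumor 1 and not in tumor 2, where most members were low. All 12 proliferation genes were above 1 FPKM in every tumor, 11 were highest in tumor 1, where 6 members were highest too, and 1 was lowest in tumor 2. Mki67 had 38.7, 30.4 and 12.0 FPKM, Pcna 88.0, 55.9 and 63.6 FPKM, and the replication gene Mcm5 28.7, 28.6 and 22.9 FPKM. The mitotic genes Birc5, with 21.5, 5.67 and 4.005 FPKM, and Ccnb1, with 7.81, 2.81 and 1.76 FPKM, had the widest ratios. Tumor 1 thus had the highest values of Foxo1, Klf2, Btg1 and S1pr1 together with the highest values of most genes of the cell cycle.

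Activation genes gave a mixed picture beside the members. Gzmb, which encodes granzyme B, was highest in tumor 2, with 462.7, 701.8 and 133.9 FPKM, as was Il2rb, with 161.8, 525.5 and 434.7 FPKM. Myc had 55.2, 37.95 and 30.4 FPKM, and the interleukin-2 receptor gene Il2ra had 43.2, 9.98 and 1.96 FPKM. Irf4, induced by antigen receptor signals, had 3.57, 0.312 and 3.25 FPKM and was low in tumor 2 like the 5 members. Of the 12 genes, 6 were lowest and 4 were highest in tumor 2, and 9 had a ratio of at least 2. The limit of 0.5 in tumor 2 was met by 3, Irf4 and, named after their values were seen, Cd44 and Tnfrsf4. The part of cell division or activation in the levels of the members was not tested.

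Genes of the early response to stimulation or tissue handling, to which Btg2 belongs as well, showed no common order of tumors. Of the 12 genes 9 had a mean of at least 1 FPKM, 4 of these were lowest in tumor 2 and none met the limit of 0.5 there. Junb had 35.4, 37.1 and 31.0 FPKM, Ier2 15.2, 12.6 and 14.8 FPKM, and Zfp36 17.0, 12.8 and 23.5 FPKM. Fos was highest in tumor 3, as Btg2 was, with 0.747, 0.762 and 5.02 FPKM. The heat shock gene Hspa1b had 0.0697 FPKM in tumor 1, from 6 reads, against 2.80 and 3.11 FPKM in tumors 2 and 3. The part of such responses in the level of Btg2 was not tested.

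The tumors carried the RNA of CD8+ T cells. Summed over the 9 T cell markers, tumor 2 was the lowest, with 993.0 FPKM against 1421.9 in tumor 1 and 1377.9 in tumor 3, but the markers went in different directions: 4 of the 9 were lowest and 4 were highest in tumor 2. Cd3d had 110.3, 134.7 and 183.0 FPKM, Cd3e 56.4, 78.1 and 65.3 FPKM, and Cd3g 78.8, 105.7 and 91.8 FPKM. Lck had 159.6, 207.8 and 207.2 FPKM, Cd5 34.5, 53.7 and 32.9 FPKM, and Cd2 135.1, 100.9 and 104.4 FPKM. The coreceptor genes were lower in tumor 2, as 7 of 9 members were, with 258.5, 121.8 and 218.1 FPKM for Cd8a and 434.7, 166.0 and 443.4 FPKM for Cd8b1. Thy1 had 153.9, 24.3 and 31.9 FPKM and was low in tumors 2 and 3. The CD4 T cell markers were lowest in tumor 2 for 3 of 3 genes, with summed FPKM of 33.9, 7.05 and 13.1. Of these Cd4 had 28.4, 4.28 and 8.22 FPKM, Zbtb7b 3.07, 2.65 and 3.18 FPKM, and Cd40lg 2.45, 0.127 and 1.69 FPKM. With each tumor scaled to the geometric mean of Cd3d, Cd3e, Cd3g, Cd2, Cd5 and Lck, the ratio of highest to lowest tumor rose to 13.1 for S1pr1, 5.71 for Btg1, 5.01 for Foxo1, 4.69 for Klf2 and 3.97 for Klf3. With all 9 T cell markers, a scaling added after the data were seen, the ratios were lower than as deposited, at 8.23 for S1pr1, 3.59 for Btg1, 3.15 for Foxo1, 2.95 for Klf2 and 2.50 for Klf3, so the direction of the shift depends on whether Cd8a, Cd8b1 and Thy1 are counted.

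Markers of B cells moved with the 5 low members. Klf2, S1pr1, Foxo1 and Btg1 are expressed by resting B cells as well as by T cells, and lymph nodes hold both. All 8 of 8 B cell markers were lowest in tumor 2, and each met the limit of 0.5 there. They summed to 63.0, 15.1 and 113.4 FPKM in tumors 1, 2 and 3, and none of them was at 0 in any tumor. Cd79a, the most abundant, had 23.1, 7.31 and 49.0 FPKM. The B cell markers were highest in tumor 3 for 7 of 8, whereas the 5 members were highest in tumor 1. The part of B cells in the result was not tested.

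Markers of other cell types also differed between the tumors. Neutrophil markers were lowest in tumor 2 for 3 of 3 genes with a mean of at least 1 FPKM, with summed FPKM of 39.0, 1.62 and 16.2 for the 5 genes listed, S100a9 the most abundant at 22.6, 1.01 and 10.4 FPKM, and the defining markers Ly6g and Mpo at 1 read each in tumor 1 and none elsewhere. Summed FPKM of markers was highest in tumor 2 for pancreatic acinar cells (79.0, 391.1 and 0.555, led by Ctrb1 with 33.9, 197.7 and 0.0494), fibroblasts (10.5, 42.6 and 0.353, led by Col1a1 with 1.63, 15.5 and 0.315) and NK cells (0.930, 38.2 and 3.56, led by Klre1 with 0.242, 32.2 and 0.0551). The NK sum in tumor 2 was mostly Klre1. Klrb1c, named after its values were seen, was also highest in tumor 2, with 0.308, 5.77 and 3.38 FPKM. The defining NK marker Ncr1 was highest in tumor 1, with 0.380, 0.205 and 0.125 FPKM from 18, 6 and 4 reads. Acinar markers made up 0.189% of the summed FPKM of tumor 2. Endothelial cells express S1pr1 and Klf2 strongly. Their markers summed to 21.9, 24.5 and 6.30 FPKM, lowest in tumor 3, led by Pecam1 with 12.2, 10.9 and 4.86 FPKM. Of these 10 markers, 3 had a mean of at least 1 FPKM. Macrophage markers summed to 434.7, 147.2 and 36.4 FPKM, led by Lyz2 with 215.2, 33.1 and 20.3, and erythroid markers to 202.4, 38.4 and 4.74 FPKM, led by Hba-a1 with 92.3, 19.6 and 1.90, both lists highest in tumor 1 and lowest in tumor 3. Of the 8 macrophage markers 7 were highest in tumor 1, but Cd68, named after its values were seen, had 19.6, 51.2 and 9.27 FPKM. Of the 4 fibroblast markers with a mean of at least 1 FPKM, 3 were highest in tumor 2. Dcn, also named after its values were seen, was highest in tumor 1, with 5.04, 3.27 and 0.00825 FPKM. The part of all these cell types in the levels of the members was not tested.

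**Figure D4:**
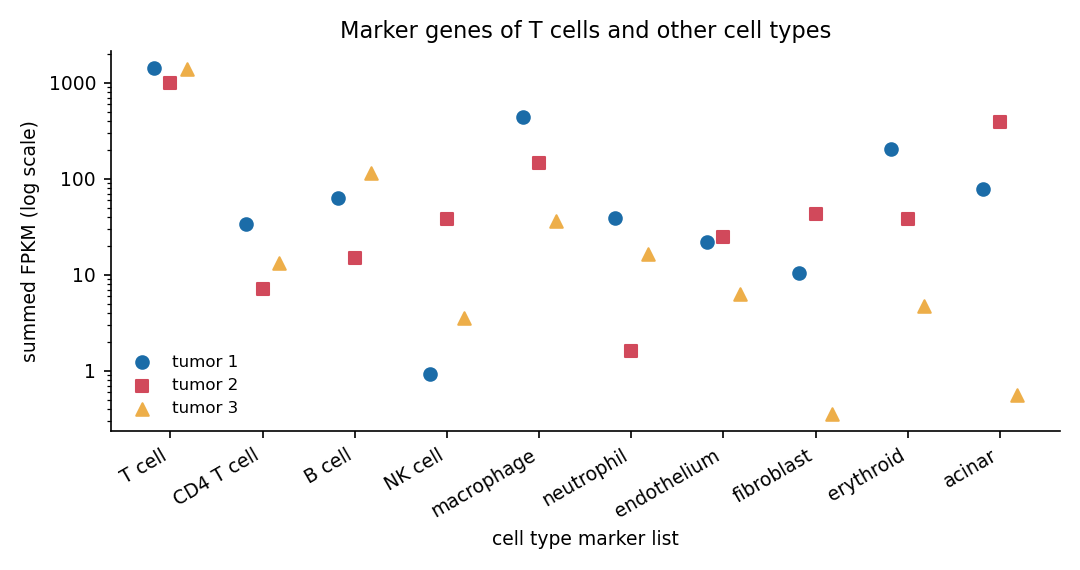
Summed FPKM, on a log axis, of marker genes of T cells and 9 other cell types in each of 3 Dnmt3b+/- PTCL, with 1 point per tumor. T cell, CD4 T cell, B cell and neutrophil markers are lowest in tumor 2, while NK cell, fibroblast and acinar markers are highest there.

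The genes closest in profile to the 5 low members were of mixed function. Closeness was the largest difference in log2 FPKM over the 3 tumors, each gene centered on its mean, among genes with a mean of at least 10 FPKM. Beside Klf2, the gene closest to Foxo1 was Rps27l, a p53 target, with 75.0, 19.3 and 58.5 FPKM. Beside Foxo1, the gene closest to Klf2 was Iglc2, an immunoglobulin light chain gene of B cells, with 15.0, 3.74 and 13.2 FPKM. The closest to Klf3 were the lipid kinase gene Pip4k2a and the mitochondrial gene Uqcrb, with 22.9, 7.22 and 14.0 FPKM and 44.2, 13.7 and 28.9 FPKM. The closest to Btg1 were Cytip, a regulator of lymphocyte adhesion, with 35.9, 7.84 and 20.7 FPKM, and 1810022K09Rik, with 21.6, 5.47 and 13.0 FPKM. S1pr1 stood further from other genes: Themis, a T cell signaling gene with 19.6, 1.77 and 9.94 FPKM, and the sialyltransferase gene St6gal1, with 15.6, 1.91 and 15.1 FPKM, were the closest, and none of 3431 genes came within 0.25 log2 units of it.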

How the data were processed

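RNA-seq (paired-end, 150 bp) of 3 Dnmt3b+/- PTCL was aligned by the authors to mm10 with STAR, and SeqMonk's RNA-seq pipeline counted the reads whose mapping quality reached 50. The values deposited by the authors are FPKM on a linear scale. Genes with no read are listed at the value of 0.9 read. Reads were recovered from FPKM and merged exon lengths of GENCODE M21, and 92.5%, 92.6% and 92.6% of values in tumors 1, 2 and 3 came out within 0.02 of a whole read or at no read. On genes lay 20271212, 12486811 and 13697244 reads. The 3 WGBS samples were not analysed here. Members and gene lists were chosen with earlier results of these data known. The text names all members, expressed paralogs (mean of at least 1 FPKM), the 3 genes with the highest mean and the 2 with the highest ratio per pathway list (among genes with a mean of at least 1 FPKM), all T cell and CD4 T cell markers, the most abundant gene of each other marker list, and the 2 closest profiles per member with a ratio of at least 2. Of these, 1 gene is not reported here. Other scalings, thresholds and left-out tumors were tried. Read recovery and calls were tested on simulated data. The simulation used the depths recovered here and had no variation between tumors beyond counting error and the changes put in, so it does not cover such variation. Computations used SciPy 1.17.1, NumPy 2.4.6 and pandas 2.3.3 under Python 3.11, with plots by matplotlib 3.10.9.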

Additional observations from a re-analysis of the deposited data

How the results depend on the processing

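No paired analysis was possible because a single group of 3 tumors was described, with no test. Tumor 2 sets the main pattern: the count of members with a ratio of at least 2 ranged from 0, without tumor 2, to 5 with a tumor left out, and the spread between tumors 1 and 3 alone reached that ratio for no member. The count was 5 or 6 under all scalings, ratios and the pseudocount tried. Tumor 2 was the lowest for 6 to 8 members under all scalings and with tumor 1 or 3 left out, alternatives added after the data were seen. Between 4 and 6 members met the limit of 0.5 in tumor 2 under all scalings, and 1 did at a limit of 0.3. A threshold of 10 FPKM was exceeded in every tumor by 5 members. With tumors left out, the count of members highest in tumor 2 ranged from 1 to 2 and in tumor 3 from 3 to 8. Highest in tumor 3 was 1 member with FPKM rescaled to a sum of 1000000 or scaled to 6 T cell markers. The rescaling to a sum also raised the median of the members' means to 112.8, a change of units, and moved all 9 means by over 1 SD, whereas no other setting moved any mean that far. Scaling factors of tumors 1, 2 and 3 were 0.922, 1.03 and 1.05 by median-of-ratios, 1.12, 0.909 and 0.984 by 6 T cell markers, and 0.885, 1.15 and 0.985 by all 9, a scaling added after the data were seen. With no minimum mean, genes without reads entered, and 28.4%, 62.8% and 8.84% of genes were highest in tumors 1, 2 and 3. With a minimum of 10 FPKM, 2.07% met the limit of 0.5 in tumor 2. The lowest count of a member was 337 reads, so depth limits the members little, but some marker values rest on few reads, such as Cd40lg in tumor 2 on 3 and Klre1 in tumor 3 on 4. Each spread rests on 3 tumors.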
